A study of Mus musculus with 6 samples.

Results

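The genes described here are 10 enzymes of lysophospholipid and platelet-activating factor (PAF) metabolism, namely Enpp2, Plb1, Lpcat1, Lpcat2, Lpcat3, Lpcat4, Pafah1b1, Pafah1b2, Pafah2 and Lypla1. They were chosen by symbol, for the reactions they carry out, from a table of 22700 genes. Mucosa from the middle of the small intestine was taken for RNA sequencing from 3 mice lacking intestinal alkaline sphingomyelinase (alk-SMase) and from 3 wild type (WT) mice, all of the C57BL/6 strain, with 1 library per mouse. The knockout (KO) libraries are K79S, K82S and K86S, and the WT libraries are W83S, W89S and W90S. In the KO mice exon 2 of Enpp7, the gene of alk-SMase, had been removed with Cre and loxP sites. The Cre driver, the age and the sex of the mice are not given in the sources used here, and all mice ate the same kind of standard pellet. The comparison of KO with WT asks which genes differ when alk-SMase, an enzyme that also inactivates PAF and limits the formation of lysophosphatidic acid (LPA), is missing.

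Lysophospholipids are phospholipids that have lost a fatty acid. In the gut they come mainly from bile and dietary phosphatidylcholine cut by phospholipases, and enterocytes take them up and join them to a fatty acid again with lysophosphatidylcholine acyltransferases (LPCAT enzymes). PAF is a signalling phospholipid with an ether-linked chain and an acetyl group. LPCAT1 and LPCAT2 can add that acetyl group to lyso-PAF, and PAF acetylhydrolases remove it. Autotaxin, the product of Enpp2, belongs to the same enzyme family as alk-SMase and turns lysophosphatidylcholine into LPA, which acts on its own receptors.

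In the deposited table the gene identifiers stand beside the values of other genes, paired by rank, and this pairing had to be undone before a gene could be read. Of the 10 members, 7 could be placed on their own row, and all 7 passed the filter on low values (at least 1 FPKM, fragments per kilobase of transcript, scaled by library depth, in at least 2 libraries). Enpp2, Lpcat1 and Lpcat2 are listed but lie beyond the ranks at which rows could be assigned with confidence, so their values in the 6 libraries are not analysed here. A gene could be placed only where its own FPKM in W83S was at least 0.954, so genes that are low in W83S are under-represented among all genes placed. The rank of an identifier still brackets the level in W83S. Counting 40 ranks to either side, Enpp2 would lie between 0.0535 and 0.0554 FPKM in W83S, Lpcat1 between 0.199 and 0.205 FPKM, and Lpcat2 between 0.660 and 0.681 FPKM. These brackets assume that the shift between the rankings stays within 40 ranks there.

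The sequence before a RefSeq start (GRCm38.p6) is shown for a pair of members, Plb1 because it varied most between mice and Pafah2 because its difference between genotypes had the lowest p-value among the members. Each line gives 250 bases on the plus strand, from 5′ to 3′. Capitals mark GGGCGG, the GC box bound by Sp1-type factors, and TTTAT, the core of sites bound by caudal-type factors such as Cdx2, on either strand.
Plb1 chr5:32238834-32239083: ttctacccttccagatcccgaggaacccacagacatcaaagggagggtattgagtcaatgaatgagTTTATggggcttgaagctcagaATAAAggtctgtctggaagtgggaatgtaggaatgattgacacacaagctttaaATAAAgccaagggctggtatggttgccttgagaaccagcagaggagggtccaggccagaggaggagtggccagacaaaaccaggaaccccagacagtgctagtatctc
Pafah2 chr4:134396070-134396319: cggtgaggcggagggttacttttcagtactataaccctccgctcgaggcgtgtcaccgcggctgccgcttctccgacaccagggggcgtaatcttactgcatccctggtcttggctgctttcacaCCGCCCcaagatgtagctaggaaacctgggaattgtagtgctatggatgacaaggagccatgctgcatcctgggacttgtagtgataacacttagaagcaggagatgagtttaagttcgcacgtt
The Plb1 window holds 3 matches to TTTAT and the Pafah2 window 1 GC box, and 0 exons of GENCODE M21 overlap either window. The Plb1 window lies in an intron of longer GENCODE transcripts, and RefSeq lists 2 starts for Plb1 and 4 for Pafah2. Windows were found for 8 of the 10 members. GGGCGG occurred in a window of 7 of these 8 and in 32.7% of all 32851 windows, and TTTAT in a window of 3 members and in 37.3% of all windows. For each motif a member counted if any of its start windows matched, while the shares are of single windows. The counts and the shares are thus not comparable. TCACNCCAC, a form of the sterol regulatory element, occurred in a further start window of Pafah2 alone among the members, and in 1.05% of all windows. A match of letters describes the window and is not evidence that a factor binds there.

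The libraries summed to 393152 (K79S), 465901 (K82S) and 421135 FPKM (K86S) in KO. In WT they summed to 483474 (W83S), 495362 (W89S) and 473383 FPKM (W90S). Every KO sum was thus below every WT sum, and the main comparison used the values without rescaling. The median log2 fold change of all rows, KO against WT, was -0.06, and 0.08 with libraries scaled to the same sum. The table holds no read counts, so the reads behind a single FPKM are not given, and errors come from 3 mice per genotype. The study lists the mapped reads of each library, which were fewest for K86S and most for W83S. The mucosa label was borne out by enterocyte markers such as Apoa1, which was at least 11160 FPKM in every library. W83S stood apart through gastric genes. The 6 of 8 gastric markers that could be placed summed to 25938 FPKM in W83S and to at most 2.61 FPKM in any other library, and each was listed at 0 in some library. The 3 of 10 pancreatic markers placed summed to 10209 FPKM in W83S and to at most 83.8 FPKM elsewhere. Clps alone had 10194 FPKM in W83S, while Cela1 had 12.4 FPKM there and Ctrb1 2.11 FPKM. Unplaced pancreatic markers were bracketed low in W83S by their rank. Prss2 would lie at 0.595 to 0.611 FPKM, Cela2a at 0.789 to 0.811 FPKM and Pnlip at 0.446 to 0.460 FPKM. All 6 T cell markers had every KO library above every WT library, against 5.9% of all rows tested. Their sums were 152 to 215 FPKM in KO and 69.1 to 112 FPKM in WT. The 4 Paneth cell markers had log2 fold changes below 0, but their sums overlapped, at 215 to 1450 FPKM in KO and 722 to 3257 FPKM in WT. The 6 proliferating crypt markers placed were also below 0, and of the 5 goblet cell markers 4 were above 0 and 1 below. Enpp7 itself stood at 605 (K79S), 129 (K82S) and 669.7 FPKM (K86S) among KO mice, and at 406 (W83S), 667 (W89S) and 495 FPKM (W90S) among WT mice. An FPKM of the whole gene cannot show whether exon 2 is missing, and thus checks no label. In bulk tissue, fewer cells of a type and less RNA per cell cannot be told apart.

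Lpcat3 was the most abundant member. Its mean over the 6 libraries was 71.8 FPKM, followed by Plb1 (38.2), Pafah1b1 (21.2), Lypla1 (20.6), Lpcat4 (14.9), Pafah2 (10.9) and Pafah1b2 (4.12). FPKM is scaled by length, so these levels can be compared between genes. Among neighbours in the order only Pafah2 and Pafah1b2 lay apart. The lowest Pafah2 library (7.98 FPKM) was above the highest Pafah1b2 library (4.68 FPKM). Every other pair of neighbours in the order overlapped over the 6 libraries. Genes that are not neighbours could also lie apart. The lowest Lpcat3 library (57.9 FPKM) was above every library of the other members except Plb1.

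**Figure D1:**
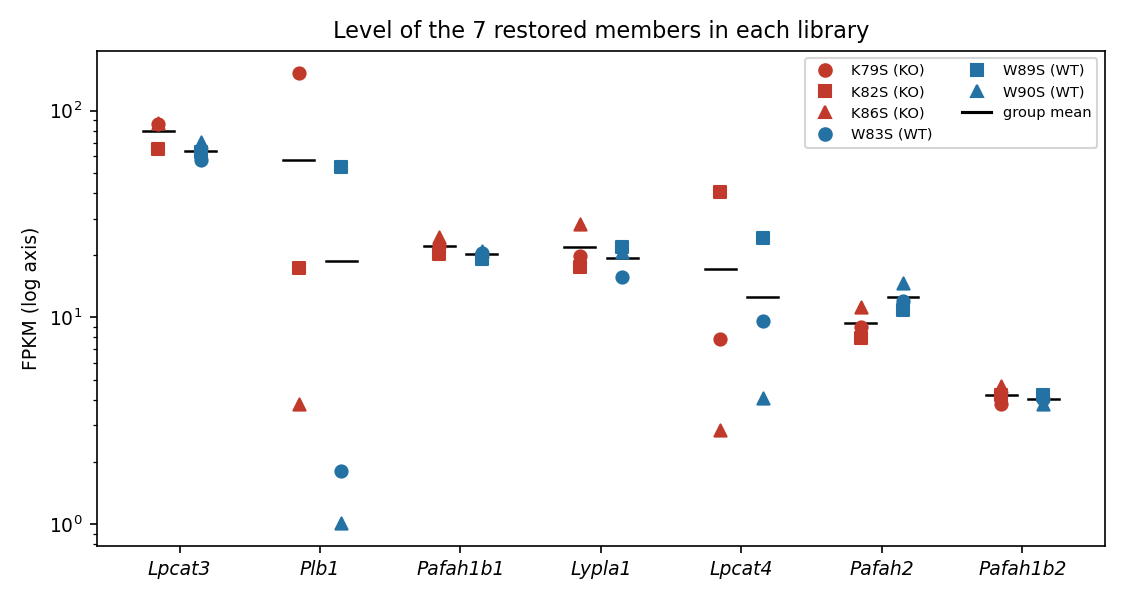
Each point is the FPKM of a gene in 1 library, on a log axis, with KO libraries in red, WT libraries in blue and the mean of each genotype as a black bar. Plb1 spread from 1.01 to 152 FPKM and Lpcat4 from 2.84 to 40.6 FPKM, while the other 5 genes stayed within a 2-fold range.

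No difference between KO and WT passed the threshold for any of the 7 members. Genotypes were compared with limma on log2(FPKM + 1). A gene passed if its Benjamini-Hochberg adjusted p was under 0.05 and its fold was above 1.5 or below 2/3. By this rule 0 of 7 members passed, where 0.00764% of the 13089 rows tested did (1 row). Without K82S the members passing were also 0 of 7, where 9.28% of all rows passed. Without K82S and W83S, left out together as an alternative chosen after seeing the data, the count was 0 of 7, where 8.88% of all rows passed. At an unadjusted limma p under 0.05 the count was 0 of 7, against 12.5% of all rows. In 0 of 7 members did the 3 KO libraries lie apart from the 3 WT libraries, against 17.2% of all rows. Of the 7 log2 fold changes, 6 were above 0, as were 42.3% of all rows, and their median was 0.13, beside -0.06 over all rows. The exact permutation test, whose smallest p with 3 against 3 mice is 0.1, gave no member a p below 0.2.

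**Figure D2:**
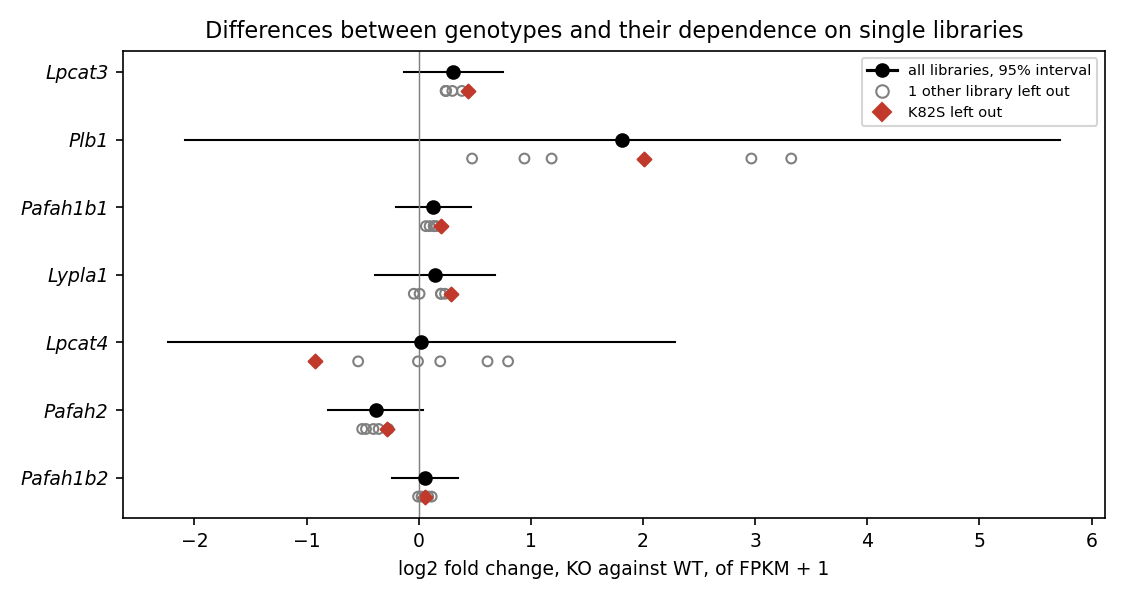
Black points are log2 fold changes (KO over WT, from log2(FPKM + 1)) with their 95% confidence interval, and the smaller marks below each are the values with a single library left out (red diamond, without K82S). All 7 intervals include 0, and those of Plb1 and Lpcat4 span more than 4 log2 units.

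The acyltransferases come first. Lpcat3 encodes the enzyme that places polyunsaturated fatty acids on lysophosphatidylcholine and has a known role in intestinal lipid absorption. Its identifier is ENSMUSG00000004270.13, on the plus strand of chromosome 6 (mm10, GENCODE M21) from 124663027 to 124704418. Lpcat3 stood at 86.6 (K79S), 65.5 (K82S) and 87.0 FPKM (K86S) among KO mice, and at 57.9 (W83S), 62.8 (W89S) and 70.8 FPKM (W90S) among WT mice. K79S and K86S lay above all WT libraries, and K82S lay among them. The means were 79.7 ± 12.3 FPKM for KO against 63.8 ± 6.53 for WT (SD, n = 3). KO exceeded WT by 0.31 on the log2 scale (standard error, SE, 0.18, 95% interval -0.13 to 0.75, limma adjusted p = 0.482). Without K82S it was 0.44 (limma adjusted p = 0.138), the lowest adjusted p that any single omission gave for a member.

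Lpcat4 (ENSMUSG00000027134.4), whose product acts mainly on lysophosphatidylethanolamine, lies on the plus strand of chromosome 2 from 112239468 to 112247111. Lpcat4 stood at 7.88 (K79S), 40.6 (K82S) and 2.84 FPKM (K86S) among KO mice, and at 9.63 (W83S), 24.1 (W89S) and 4.07 FPKM (W90S) among WT mice. K82S and W89S were the highest of their genotypes and K86S and W90S the lowest, and the WT range lay inside the KO range. KO and WT differed by 0.02 on the log2 scale (SE 0.94, limma adjusted p = 0.994). Its 95% interval, -2.24 to 2.28, leaves room for a difference in either direction, and the value was -0.92 without K82S and 0.80 without K86S. The spread of Lpcat4 within genotypes (SD 1.48 on the log2 scale) was larger than that of 99.2% of rows tested.

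The subunits of PAF acetylhydrolase 1b were the least variable members. Pafah1b1 encodes LIS1, the regulatory subunit of the brain-type enzyme, which also regulates the motor protein dynein. It (ENSMUSG00000020745.15) is read from the minus strand of chromosome 11, from 74673949 to 74724670. Pafah1b1 stood at 22.1 (K79S), 20.2 (K82S) and 24.5 FPKM (K86S) among KO mice, and at 20.4 (W83S), 19.2 (W89S) and 20.96 FPKM (W90S) among WT mice. K79S and K86S lay above all WT libraries and K82S among them, with a log2 fold change of 0.13 (SE 0.14, 95% interval -0.20 to 0.46, limma adjusted p = 0.702). Pafah1b2 (ENSMUSG00000003131.7), also a minus-strand gene (chromosome 9, 45962859 to 46012690), encodes a catalytic subunit of the same complex. It stood at 3.80 (K79S), 4.20 (K82S) and 4.68 FPKM (K86S) among KO mice, and at 4.03 (W83S), 4.22 (W89S) and 3.81 FPKM (W90S) among WT mice. The groups overlapped, with a log2 fold change of 0.06 (SE 0.12, 95% interval -0.24 to 0.35, limma adjusted p = 0.869). Within genotypes, 91.6% of rows tested varied more than Pafah1b1 and 93.6% varied more than Pafah1b2.

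Pafah2 encodes an intracellular PAF acetylhydrolase that also cleaves oxidised phospholipids. It (ENSMUSG00000037366.14) lies on the plus strand of chromosome 4 from 134396320 to 134427413. Pafah2 stood at 8.95 (K79S), 7.98 (K82S) and 11.2 FPKM (K86S) among KO mice, and at 12.0 (W83S), 10.9 (W89S) and 14.6 FPKM (W90S) among WT mice. K79S and K82S lay below all WT libraries, and K86S lay just above W89S. The means were 9.38 ± 1.65 FPKM for KO against 12.5 ± 1.94 for WT (SD, n = 3). The log2 fold change of -0.38 (SE 0.18, 95% interval -0.80 to 0.04) had an unadjusted p of 0.0699 and an adjusted p of 0.404 from limma, and the exact permutation test gave p = 0.2. Under the alternative settings the log2 fold change stayed below 0, from -0.50 without K86S to -0.21 with libraries scaled to the same sum. The adjusted p from limma lay between 0.206 and 0.760.

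Plb1 and Lypla1 encode enzymes that break lysophospholipids down. Plb1, phospholipase B1, is a brush border enzyme that removes both fatty acids of a phospholipid and also splits retinyl esters. It (ENSMUSG00000029134.14) lies on the plus strand of chromosome 5 from 32232708 to 32366520. Plb1 stood at 152 (K79S), 17.3 (K82S) and 3.83 FPKM (K86S) among KO mice, and at 1.81 (W83S), 53.4 (W89S) and 1.01 FPKM (W90S) among WT mice. The highest library held 149.9 times the level of the lowest, and high and low libraries occurred in both genotypes. Its spread within genotypes (SD 2.57 on the log2 scale) exceeded that of 99.9% of rows tested. The log2 fold change came to 1.82 (SE 1.63, 95% interval -2.09 to 5.72, limma adjusted p = 0.652), and moved between 0.48 without K79S and 3.32 without W89S. Lypla1 (ENSMUSG00000025903.14), on the plus strand of chromosome 1 from 4807788 to 4848410, encodes a cytosolic lysophospholipase better known as acyl-protein thioesterase, which removes palmitate from proteins. Lypla1 stood at 19.9 (K79S), 17.5 (K82S) and 28.2 FPKM (K86S) among KO mice, and at 15.7 (W83S), 21.9 (W89S) and 20.7 FPKM (W90S) among WT mice. K86S was the highest library and W83S the lowest, and K79S and K82S lay between W83S and the other WT libraries. The log2 fold change was 0.15 (SE 0.22, 95% interval -0.39 to 0.68, limma adjusted p = 0.802).

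The pair of variable members followed different genes over the 6 libraries. Lpcat4 was most like Acly, ATP citrate lyase, which makes cytosolic acetyl-CoA for fatty acid and sterol synthesis, among the 9231 protein-coding genes placed and tested (Pearson r = 0.999 over 6 libraries). Acly had 14.8 FPKM in K82S and 12.5 in W89S, and between 6.96 and 9.74 FPKM in the other libraries. The sterol synthesis genes Hmgcs1 and Fdps, picked for naming after their values had been seen, each had r = 0.985 with Lpcat4. Hmgcs1 had 97.1 FPKM in K82S and 59.8 FPKM in W89S, against 16.7 to 35.3 FPKM in the other 4 libraries. Plb1 was most like Gata5, a transcription factor of the gut epithelium (r = 0.994), which had 67.1, 54.8 and 39.7 FPKM in K79S, W89S and K82S and at most 32.8 FPKM elsewhere. Such values of r are a description. They were picked from 9231 and rest on only 6 points, at each of which both genes share the library and its depth.

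**Figure D3:**
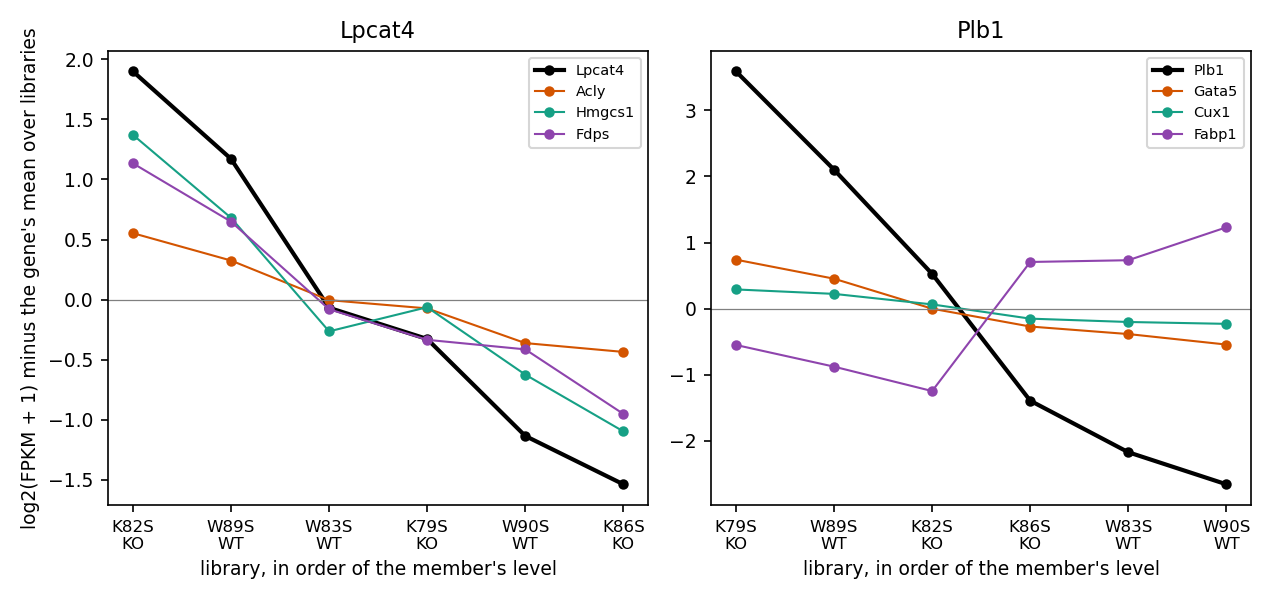
Lines show log2(FPKM + 1) minus the mean of each gene over the 6 libraries, with libraries ordered by the level of Lpcat4 (left) or Plb1 (right) and labelled by genotype. Acly, Hmgcs1 and Fdps were highest in K82S and W89S like Lpcat4, and Fabp1 was lowest in the 3 libraries in which Plb1 was highest.

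Fabp1, the liver-type fatty acid binding protein of the proximal small intestine, was lower in the 3 libraries with the most Plb1 than in the 3 with the least. Fabp1 had 1576, 1255 and 972 FPKM in K79S, W89S and K82S, and 3765, 3834 and 5415 FPKM in K86S, W83S and W90S. Within the first 3 libraries the order did not run opposite, since K79S had the most of both genes. Fabp1 was 1 of 5 proximal markers, and the other 4 (Gata4, Cybrd1, Slc40a1 and Lct) did not divide the libraries in this way. Lct, lactase, had 455.8 FPKM in K79S, more than in W83S (242.7 FPKM) and W90S (284.5 FPKM), and Gata4 had 35.6 FPKM in K79S and 34.3 FPKM in W90S. Over the 6 libraries, Pearson r with Plb1 was -0.81 for Fabp1, -0.48 for Cybrd1, -0.32 for Slc40a1, -0.31 for Gata4 and -0.07 for Lct. The summed level of the 5 markers, most of it Fabp1, was 2068, 1446 and 1065 FPKM in K79S, W89S and K82S, and 4295, 4137 and 5735 FPKM in K86S, W83S and W90S. By genotype the sums ran from 1065 to 4295 FPKM in KO and from 1446 to 5735 FPKM in WT, and none of the 5 markers was listed at 0. Of the 3 distal markers only Cyp4f14 could be placed, and Fabp6 and Slc10a2 were not analysed here. The part of the sampled position in the Plb1 values was not tested.

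Within the wider pathway, 63 further genes were listed in 6 groups. Of these 47 could be placed and 43 were tested, and 0 passed the threshold. Of the 43 log2 fold changes, 22 were above 0 and 21 below. The KO libraries lay apart from the WT libraries for 4 genes, Liph above and Gnpat, Far2 and Pla2g12a below. Over all rows, 5.9% had KO apart above WT and 11.3% apart below. At an unadjusted limma p under 0.05 there was 1 gene, Gnpat, against 12.5% of all rows.

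On the LPA side, 9 of 15 genes were tested, with a median log2 fold change of 0.13. The most abundant were Plpp2, Gdpd1 and Plpp1. Plpp1 and Plpp2 encode phosphatases that remove the phosphate of LPA, and Gdpd1 a lysophospholipase D that makes it. Plpp2 averaged 135 ± 22.2 FPKM for KO against 119 ± 42.5 for WT (SD, n = 3), with a log2 fold change of 0.24 (SE 0.31, limma adjusted p = 0.765). Liph, a phospholipase A1 that makes LPA from phosphatidic acid, stood at 18.4 (K79S), 17.9 (K82S) and 18.7 FPKM (K86S) among KO mice, and at 17.7 (W83S), 16.6 (W89S) and 17.5 FPKM (W90S) among WT mice. Every KO library was above every WT library, but by a log2 fold change of only 0.08 (limma adjusted p = 0.80). The receptor genes were named beyond the rule, after their values had been seen. Lpar5 was the highest LPA receptor gene, at 14.8 to 26.9 FPKM in KO and 18.3 to 21.8 FPKM in WT. Lpar1 and Lpar3 reached at most 11.2 FPKM and Lpar2 at most 1.21 FPKM.

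On the PAF side, 6 of 7 genes were tested, with a median log2 fold change of -0.20. Ptafr, the PAF receptor, was low, at 0.936 to 2.24 FPKM in KO and 0.790 to 1.87 FPKM in WT. Pafah1b3, the other catalytic partner of LIS1, stood at 12.2 (K79S), 18.3 (K82S) and 11.4 FPKM (K86S) among KO mice, and at 16.8 (W83S), 20.2 (W89S) and 19.0 FPKM (W90S) among WT mice. K79S and K86S lay below all WT libraries and K82S within them, with a log2 fold change of -0.42 (SE 0.20, limma adjusted p = 0.414). Without K82S the value was -0.61, and its limma adjusted p of 0.050 lay just inside the threshold, where 9.28% of all rows passed. Gnpat, which starts ether lipid synthesis in peroxisomes, stood at 4.40 (K79S), 6.24 (K82S) and 4.37 FPKM (K86S) among KO mice, and at 6.83 (W83S), 6.49 (W89S) and 6.94 FPKM (W90S) among WT mice. Every KO library was below every WT library, K82S by the least, with a log2 fold change of -0.38 (SE 0.15, limma adjusted p = 0.393). Without K82S the limma adjusted p of Gnpat was 0.0447 at a log2 fold change of -0.53, too small a fold to pass. Far2, a fatty acyl-CoA reductase that supplies the ether-linked alcohol, had 4.48 to 4.73 FPKM in KO and 5.02 to 7.08 FPKM in WT. Its log2 fold change was -0.28 (limma adjusted p = 0.435). With libraries scaled to the same sum the log2 fold change was -0.23 for Gnpat and -0.12 for Far2.

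Among the other acyltransferases, 9 of 10 genes were tested, 4 with log2 fold changes above 0 and 5 below. Agpat2 and Agpat1, which turn LPA into phosphatidic acid, were the most abundant, at a mean of 118 FPKM and 57.7 FPKM over all libraries. Agpat2 had a log2 fold change of 0.13 (limma adjusted p = 0.778) and Agpat1 one of -0.06 (limma adjusted p = 0.930). Lpgat1, an acyltransferase of lysophosphatidylglycerol, ranged from 18.9 to 62.0 FPKM in KO and from 18.7 to 44.8 FPKM in WT.

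The phospholipases A2, which release lysophospholipids, had 9 of 17 genes tested and a median log2 fold change of -0.53. W83S, the library with the gastric genes and with high Clps, was the highest for Pla2g1b, Pla2g10 and Pla2g12a. Pla2g1b, the pancreatic enzyme, reached 2309 FPKM there, with 0.457 FPKM in K82S, 2.02 FPKM in W90S and 0 listed for the other 3. Pla2g10 had 17.2 FPKM in W83S against 3.22 to 10.1 FPKM in the other libraries, and Pla2g12a had 6.61 FPKM against 0.546 to 2.09 FPKM. The part of the gastric RNA, or of any pancreatic RNA, in these values was not tested. Pla2g12b, which serves lipoprotein secretion in enterocytes, was high in every library, with 80.8 ± 7.70 FPKM for KO against 94.1 ± 10.3 for WT (SD, n = 3, log2 fold change -0.22, limma adjusted p = 0.595).

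The other lysophospholipases had 7 of 8 genes tested and a median log2 fold change of 0.16. The lysoplasmalogenases Tmem86a and Tmem86b had 43.1 to 75.6 FPKM and 22.8 to 73.6 FPKM in KO, and 60.1 to 89.9 FPKM and 28.5 to 54.3 FPKM in WT. Abhd12, a lipase of lysophosphatidylserine, had 27.1 to 58.3 FPKM in KO and 34.2 to 39.2 FPKM in WT. The groups overlapped for each of them. In the ENPP family, to which autotaxin and alk-SMase belong, 3 of 6 genes were tested. Enpp3, an ectoenzyme that splits nucleotides, stood at 90.9 (K79S), 43.4 (K82S) and 183 FPKM (K86S) among KO mice, and at 98.4 (W83S), 39.6 (W89S) and 82.2 FPKM (W90S) among WT mice, with a log2 fold change of 0.39 (limma adjusted p = 0.790). Enpp7 had a log2 fold change of -0.45 (SE 0.64, limma adjusted p = 0.782), and Enpp5 was low, at most 3.34 FPKM.

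**Figure D4:**
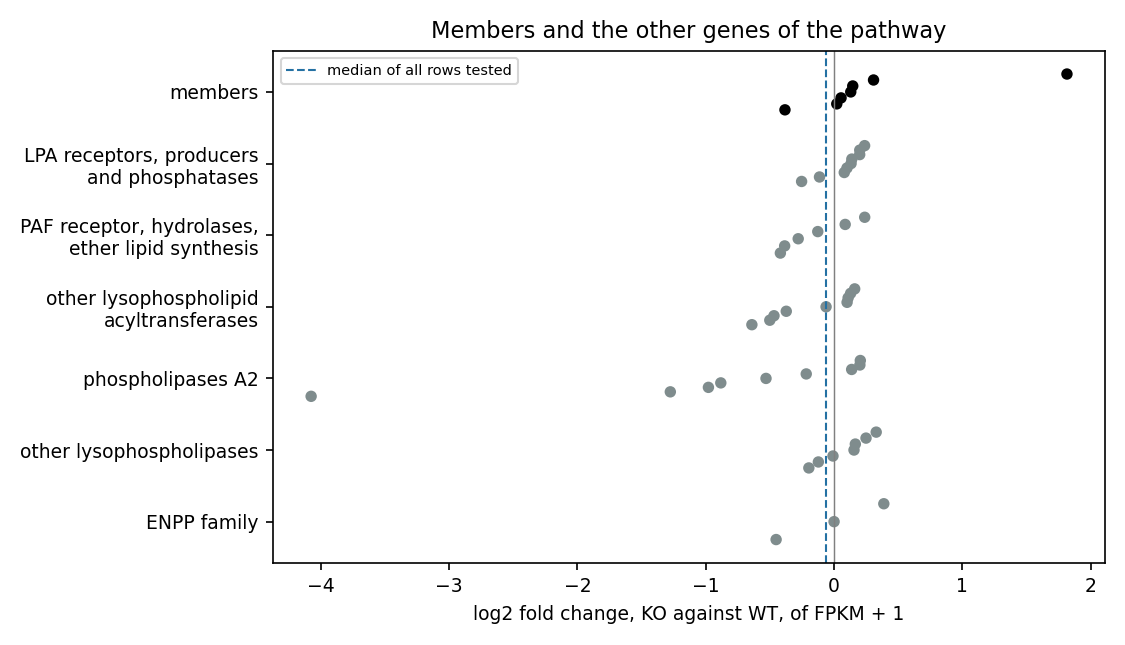
Each point is the log2 fold change (KO over WT, from log2(FPKM + 1)) of a tested gene, for the 7 members (black) and 6 groups of pathway genes (grey), with the median of all 13089 rows as a dashed line at -0.06. Most points lie within 1 log2 unit of 0, the lowest being Pla2g1b at -4.08 and the highest Plb1 at 1.82.

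Compared within the pathway, the members were each most like different genes. Over the 6 libraries and among the 50 members and pathway genes tested, Lypla1 was most like Plpp3 (Pearson r = 0.944), Pafah1b1 was most like Enpp3 (0.893), Lpcat3 was most like Pnpla6 (0.881), Pafah2 was most like Agpat3 (0.864), Pafah1b2 was most like Pla2g7 (0.821), Lpcat4 was most like Gdpd1 (0.820) and Plb1 was most like Lypla2 (0.719). Among the members themselves, Lpcat3 and Pafah1b1 had the highest correlation (0.85) and Lpcat4 and Pafah1b1 the lowest (-0.76). These are descriptions over 6 libraries. The libraries differed in depth and tissue makeup, and both genes of a pair share these in each library.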

How the data were processed

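From 50 bp single-end reads, trimmed by trim-galore and mapped by HISAT2 (genome mm10), the authors obtained gene values with StringTie. The deposited values are FPKM, 1 per gene and library. Versions and the strand setting are not given in the sources used here, so reads of overlapping genes may be mixed. There were 0 columns of values without a sample.

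Identifiers were ranked by the K79S value beside them and rows by W83S, and each gene was moved to the row at its rank plus a given offset. This placed 12397 identifiers with a symbol in GENCODE M21. As a check, at most 6 decimals were printed for 99.7% of placed genes with 1 transcript and 5.80% of those with several. Within 150 ranks of each member at least 94.4% of genes matched this rule, against at most 65.8% at any other offset within 3.

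Rows with at least 1 FPKM in at least 2 libraries were kept. log2(FPKM + 1), which understates changes of low genes, was fitted with limma 3.58.1 (R 4.3.3, eBayes with trend, all 6 libraries, no covariate). The authors used edgeR, whose count model does not apply to FPKM. At the same limits on fold and adjusted p (FDR in the study) they reported more genes than the main fit called here. Named were the members, Enpp7 and, per pathway list, genes called, genes with groups apart and the 3 most abundant. Members and lists were chosen with earlier results of these data known. Exact permutation tests of the difference in means were two-sided (scipy 1.17.1). The limma code was tested on simulated data in which 200 of 13089 rows were changed. It called 18 of the 200 at a change of 1 log2 unit and 157 at 2 log2 units. Most changes of 1 log2 unit were thus missed there, so 0 members passing does not by itself exclude such changes. A change of 1 log2 unit in either direction lay outside the confidence intervals of Lpcat3, Pafah1b1, Pafah1b2, Pafah2 and Lypla1 in the main fit. It lay inside those of Plb1 and Lpcat4. Alternatives were a pseudocount of 0.1, no filter, a limit of 0.5 FPKM, rescaled libraries, array weights and single libraries left out. Leaving out both K82S and W83S was added after seeing the data.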

Additional observations from a re-analysis of the deposited data

How the results depend on the processing

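The count of members passing the threshold was 0 under each of the 13 alternatives. Rows called over the whole table were 0 with a pseudocount of 0.1, 2 with array weights, 0 to 1184 with a single library left out (1184 without K82S, of which 51 were higher and 1133 lower) and 1111 without K82S and W83S, an alternative chosen after seeing the data. The members' median log2 fold change was 0.31 with libraries scaled to the same sum, a scaling that moved the median of all rows by 0.14 and left 6 members above that median, and 0.057 to 0.23 with a library left out.

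Some log2 fold changes reversed. That of Lpcat4 was -0.014 with a pseudocount of 0.1, -0.25 with array weights, -0.95 without K82S and W83S, and -0.92 to 0.80 with a library left out. With array weights Enpp5 was at -0.069 and Enpp7 at 0.078. Agpat1 was at 0.12 with equal sums and 0.025 with median-ratio scaling. Without K82S and W83S, Agpat1 was at 0.17, Agpat2 at -0.040, Enpp7 at 0.15, Gdpd1 at -0.22 and Plpp1 at 0.14. With a single library left out, Pafah1b2 ranged from -0.0059 to 0.12, Lypla1 from -0.044 to 0.29, Abhd12 from -0.11 to 0.43, Agpat1 from -0.24 to 0.12, Enpp3 from -0.12 to 0.91, Enpp5 from -0.29 to 0.47, Enpp7 from -0.87 to 0.31, Gdpd1 from -0.043 to 0.50, Lpgat1 from -0.24 to 0.59, Plpp1 from -0.54 to 0.13, Plpp2 from -0.081 to 0.47, Tmem86a from -0.33 to 0.064 and Tmem86b from -0.14 to 0.68. The causes were not tested. Plb1, Lpcat3, Pafah1b1 and Pafah2 kept their direction under every alternative.

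Reads per gene are not given, and 3 mice per genotype limit the precision. Leaving out 1 library leaves a genotype with 2 mice. No paired analysis was possible because neither the labels nor the methods say which KO mouse goes with which WT mouse, although the study describes the tissues as matched pairs.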
